A study of Mus musculus with 8 samples.

Results

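The keratin genes of epidermis and hair were followed in mouse skin treated with enalapril after chronic ultraviolet B (UVB) irradiation. They were taken as the genes whose probes carry a name that starts with Krt and a digit, which leaves out the keratin-associated proteins. The rule found 42 keratin genes, measured by 50 probes, among 27740 genes and unnamed probes on the array, and 8 of the 42 had more than 1 probe. Each gene is reported from the probe with the highest mean intensity. Of the 42 keratins, 40 passed the filter on dim probes, as did 19097 of all genes. Krt42 and Krt76, a keratin of suprabasal oral epithelium, were not well above background on any array and were not tested.

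The study took skin of the back from 8 SKH-1 males aged 19 weeks and hybridised the total RNA of each mouse to 1 one-colour (Cy3) array. SKH-1 is a hairless strain that sheds its coat after the first hair cycle, so its follicles are a limited model of haired skin. All 8 mice had received 10 weeks of UVB on the back. From 1 week later, 4 mice were given 1% (w/v) enalapril maleate, an inhibitor of the angiotensin-converting enzyme, in 30% ethanol on the back, and 4 mice were given 30% ethanol alone (vehicle). Both solutions were applied on 5 days of each week for 2 weeks, and no group without irradiation was analysed here. The comparison asks which genes differ between enalapril and its vehicle in irradiated skin.

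Keratins build the intermediate filaments of epithelial cells, and each filament pairs a type I (acidic) keratin with a type II (basic) one. Basal cells of the epidermis make Krt5 with Krt14, and suprabasal cells switch to Krt1 with Krt10. After wounding, irradiation or other stress, epidermal cells raise Krt6a, Krt6b, Krt16 and Krt17. Hair follicles make separate sets for the inner root sheath and for the hard keratin of the hair shaft. In RNA from whole skin, fewer cells of a type and less RNA per cell cannot be told apart.

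The promoters of 6 keratins are shown because 4 hair shaft keratins share a motif, because Krt32 and Krt78 passed the test, and because Krt36 had the most negative estimate among hair shaft keratins. Each run is the 250 bases before the RefSeq transcription start (GRCm38.p6), 5′ to 3′ on the gene's own strand, which is the minus strand for all 6. Capitals mark CTTTGAAG, a form of the LEF1 binding motif, and TATAAA, the TATA box. The windows are chr11:100088270-100088519 for Krt32, chr11:100050552-100050801 for Krt31, chr11:100029869-100030118 for Krt33b, chr11:100041555-100041804 for Krt34, chr11:100105627-100105876 for Krt36 and chr15:101954288-101954537 for Krt78. The first 5 are type I genes in the keratin cluster of chromosome 11, and Krt78 is a type II gene in the cluster of chromosome 15.
Krt32: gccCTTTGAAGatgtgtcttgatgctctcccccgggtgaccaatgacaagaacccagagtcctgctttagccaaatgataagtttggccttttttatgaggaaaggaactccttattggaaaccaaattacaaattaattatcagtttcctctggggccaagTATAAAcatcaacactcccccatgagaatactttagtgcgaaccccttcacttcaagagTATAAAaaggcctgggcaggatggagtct
Krt31: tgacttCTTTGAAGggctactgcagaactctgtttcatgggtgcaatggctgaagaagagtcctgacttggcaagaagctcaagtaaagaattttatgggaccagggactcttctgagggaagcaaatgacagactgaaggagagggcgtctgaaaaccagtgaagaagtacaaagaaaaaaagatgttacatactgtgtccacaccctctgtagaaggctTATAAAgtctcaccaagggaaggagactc
Krt33b: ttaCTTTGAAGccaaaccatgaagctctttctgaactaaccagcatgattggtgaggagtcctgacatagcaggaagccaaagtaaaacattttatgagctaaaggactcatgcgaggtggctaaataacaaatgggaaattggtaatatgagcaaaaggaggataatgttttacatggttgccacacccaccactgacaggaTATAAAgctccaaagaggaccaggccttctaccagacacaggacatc
Krt34: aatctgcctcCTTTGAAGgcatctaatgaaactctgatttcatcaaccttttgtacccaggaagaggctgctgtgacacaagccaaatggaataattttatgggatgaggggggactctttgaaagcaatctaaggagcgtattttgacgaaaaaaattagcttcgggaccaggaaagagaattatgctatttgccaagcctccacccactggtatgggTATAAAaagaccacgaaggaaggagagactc
Krt36: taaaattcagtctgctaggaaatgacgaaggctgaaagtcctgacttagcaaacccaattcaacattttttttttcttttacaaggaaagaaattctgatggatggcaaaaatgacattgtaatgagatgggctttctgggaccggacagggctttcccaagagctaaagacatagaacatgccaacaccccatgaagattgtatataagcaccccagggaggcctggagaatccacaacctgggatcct
Krt78: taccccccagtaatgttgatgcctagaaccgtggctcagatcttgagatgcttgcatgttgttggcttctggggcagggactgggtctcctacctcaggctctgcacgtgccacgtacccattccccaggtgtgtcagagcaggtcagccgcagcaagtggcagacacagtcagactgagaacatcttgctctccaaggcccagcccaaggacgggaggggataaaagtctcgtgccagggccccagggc

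Of the 42 keratin genes, 28 had a promoter in the RefSeq table, with 29 windows in all. Both strands were searched for the 2 motifs above, for GCCNNNGGC (AP-2) and for TGANTCA (AP-1). CTTTGAAG was in the windows of 4 of 7 hair shaft keratins and in 0 of the 22 other keratin windows, against 1.42% of all 32851 promoter windows. It began 247 bases before the start in Krt32 and Krt33b, 244 bases before it in Krt31 and 240 bases before it in Krt34. TATAAA was in all 5 windows of inner root sheath keratins and in 5 of 7 of hair shaft keratins, against 12.4% of all windows. It lay within 50 bases of the start in Krt32, Krt31, Krt33b and Krt34, and Krt32 had another copy farther away. GCCNNNGGC was in 4 of 29 keratin windows (13.7% of all windows), and TGANTCA was in 2 of 29, both of Krt13 (6.75% of all windows). No matches overlapped in the keratin windows. The 250 bases of Krt36 and Krt78 held neither motif marked in capitals, which says only that these letters are not in the window.

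Levels below are log2 intensities minus the 75th percentile of their array, so 0 is the level of a fairly bright probe, and they are listed for mice 1 to 4 of each group. A difference is enalapril minus vehicle on the log2 scale, ± its standard error, with 4 mice in each group. Tests are limma's, two-sided, with p adjusted over all 19097 genes by Benjamini-Hochberg, and a gene passed at an adjusted p under 0.05. Between 67.1% and 72.7% of spots were well above background on each array, and 38 of the 42 keratins were so on all 8 arrays. The 8 keratins Krt1, Krt5, Krt6a, Krt10, Krt14, Krt15, Krt16 and Krt17 were so bright that all 8 arrays took their signal from the scan at low gain, and none was saturated. The arrays of vehicle mice 2 and 3 were brighter than the others, with a 75th percentile of 1540 each, against 821.5 to 1070. They also took more spots from the low-gain scan, 1875 and 1755 against 885 to 1135. How far this brightness moved the levels of bright probes was not tested. All vehicle arrays lay on 1 slide with 1 scan and all enalapril arrays on another, so the slide and the scan cannot be told apart from the treatment throughout.

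Across the family, 3 keratins passed as lower after enalapril and 0 as higher: Krt78, Krt32 and Krt12. Krt12 was well above background in only 1 enalapril mouse and met the filter mainly through the vehicle mice. The 3 called genes are 7.5% of the keratins tested, against 14.2% of all genes (4.33% higher and 9.85% lower). The share of keratins thus lies below that of the array as a whole. Without adjustment, 8 keratins were lower and 1 was higher at p under 0.05. In either direction this is 9 of 40 keratins, against 6125 of 19097 genes, so this share too lies below that of the array. The difference was negative for 29 of 40 keratins (72.5%), against 59.8% of all genes. The median keratin difference was -0.41, against -0.08 over all genes. All 4 enalapril mice lay below all 4 vehicle mice for Krt32, Krt78, Krt9 and Krt23, which is 10% of keratins, against 15.4% of all genes. They lay wholly above for 0 keratins, against 6.60% of all genes. The median SD within a group was 0.426 for keratins and 0.207 for all genes, and 33 of 40 keratins lay above that second value.

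**Figure D1:**
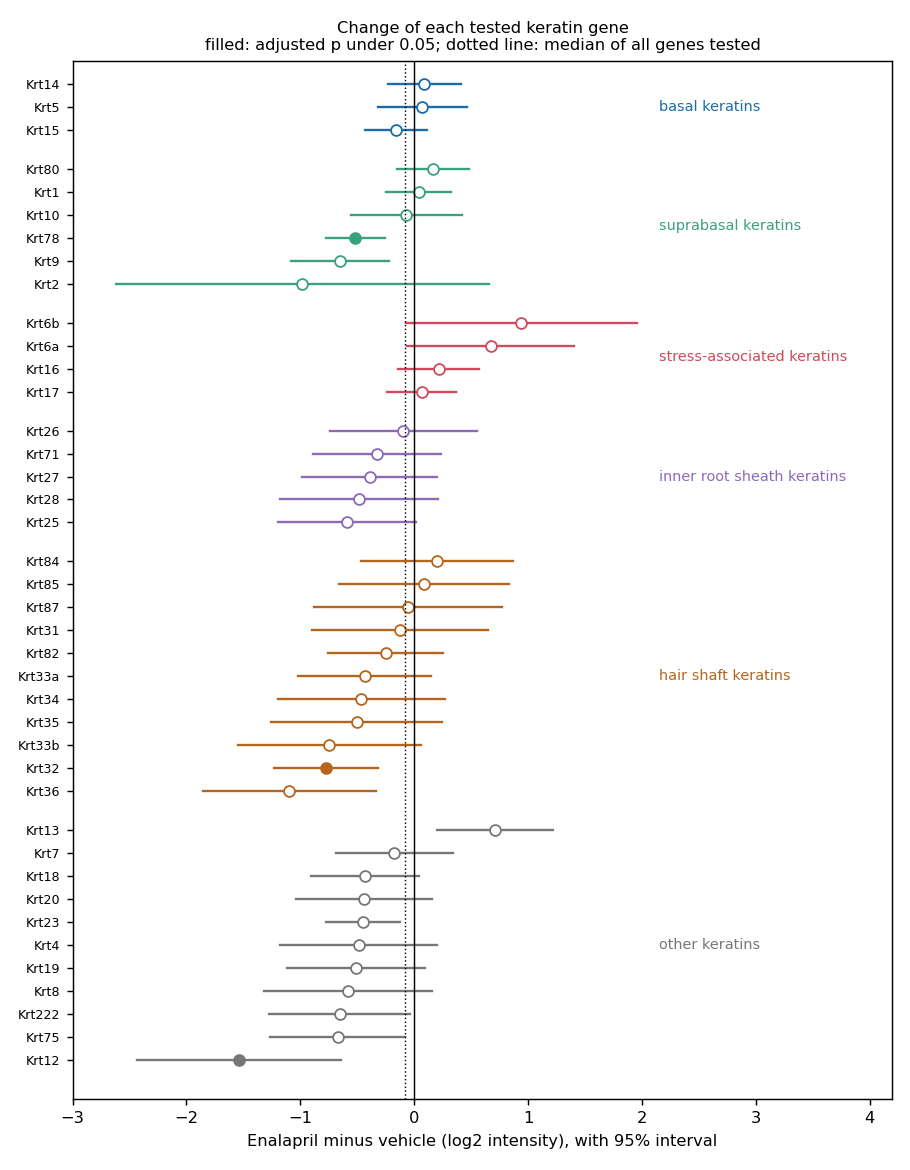
Difference between enalapril and vehicle for each of the 40 tested keratins (enalapril minus vehicle, log2 intensity, with the 95% interval), by group. Filled points are the 3 keratins at adjusted p under 0.05, and the dotted line is the median of all genes tested, -0.08. The interval is narrowest for Krt78 and widest for Krt2, followed by Krt6b.

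The number of keratins that passed moved with single mice. It was between 0 and 3 lower and between 0 and 1 higher when each mouse was left out in turn, and Krt13 was the 1 higher, without vehicle mouse 3. It was 0 in both directions without vehicle mouse 1, vehicle mouse 2, enalapril mouse 1 or enalapril mouse 3. Those fits called 4.69%, 4.92%, 4.88% and 4.79% of all genes, in that order, against 14.2% with all 8 mice. The share over all genes thus also moved with single mice. On the submitters' own values, which were not centred between arrays, 10 of 40 keratins and 1892 of 19097 genes were lower. The median of all genes was then -0.45.

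The basal keratins did not pass the test in either direction (0 of 3, and 0 without adjustment). Of all genes 14.2% passed, and 6125 of 19097 were at p under 0.05 without adjustment. Krt5 and Krt14 pair in the basal layer, and Krt15 marks basal cells and the follicle bulge. Krt5 had levels of 7.97, 7.47, 7.58 and 8.24 in the vehicle mice and 7.75, 7.87, 8.01 and 7.92 in the enalapril mice. Krt14 had levels of 8.18, 7.78, 8.01 and 8.29 in the vehicle mice and 8.0, 8.16, 8.40 and 8.05 in the enalapril mice. In both genes the groups overlapped, and vehicle mouse 2, on a brighter array, was lowest. With quantile normalization the differences were 0.18 ± 0.096 for Krt5 and 0.22 ± 0.13 for Krt14, and neither passed. At the chosen settings the differences were 0.07 ± 0.17 for Krt5 (95% interval -0.32 to 0.46) and 0.09 ± 0.14 for Krt14 (-0.23 to 0.41). Krt15 had levels of 5.47, 5.43, 5.43 and 5.58 in the vehicle mice and 5.33, 5.33, 5.05 and 5.57 in the enalapril mice. The Krt15 groups overlapped, with enalapril mouse 3 lowest, and the difference was -0.16 ± 0.12 (interval -0.43 to 0.11, adjusted p = 0.391). Krt5 and Krt14 lay on the same side of their own means in 7 of 8 mice.

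Among the suprabasal keratins, 1 of 6 passed as lower and 0 as higher, against 9.85% and 4.33% of all genes. Krt78, a type II keratin, fell 1.43-fold. Krt78 had levels of 2.69, 2.86, 2.47 and 2.79 in the vehicle mice and 2.10, 2.17, 2.14 and 2.34 in the enalapril mice. Every enalapril mouse lay below every vehicle mouse. The mean was 2.70 ± 0.17 in the vehicle group and 2.19 ± 0.11 in the enalapril group (SD, n = 4), and limma gave -0.52 ± 0.11 with an adjusted p of 0.0247. The call held in 10 of 14 alternative analyses, but changes of filter, probe choice or variance model left the values of its only probe as they were. The Krt78 call was lost with normexp background correction, centring on the E1A spike-in probes, the submitters' uncentred values or the replicate number as a block. That normexp fit called 0 genes on the whole array. Once the local background of 5 spots was repaired, normexp called Krt78 and no other keratin. With a mouse left out, it held only without vehicle mouse 3 or enalapril mouse 4, with adjusted p up to 0.0661 otherwise.

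Krt9, known for the thick epidermis of palms and soles, did not pass. Krt9 had levels of -3.84, -4.03, -4.15 and -3.66 in the vehicle mice and -4.88, -4.37, -4.86 and -4.17 in the enalapril mice. The groups did not overlap, and the difference was -0.65 ± 0.19 with an adjusted p of 0.0533. With a mouse left out, Krt9 passed only without enalapril mouse 4 (adjusted p = 0.0159), with adjusted p up to 0.126 otherwise. Krt2, a keratin of the uppermost living layers, had the widest spread of all keratins tested. Krt2 had levels of -3.91, -1.04, -3.06 and -0.97 in the vehicle mice and -4.16, -2.88, -2.16 and -3.72 in the enalapril mice. Vehicle mice 2 and 4 were high and all others low, and the groups overlapped. The difference of -0.98 ± 0.72 did not pass (adjusted p = 0.378). The second Krt2 probe was also highest in vehicle mice 2 and 4.

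The main suprabasal pair did not differ beyond its spread. Krt1 had levels of 7.18, 7.01, 7.01 and 7.39 in the vehicle mice and 7.0, 7.28, 7.35 and 7.11 in the enalapril mice. Krt10 had levels of 8.60, 7.90, 8.02 and 8.87 in the vehicle mice and 8.13, 8.24, 8.32 and 8.43 in the enalapril mice. Both were highest in vehicle mouse 4, and the groups overlapped in both. The differences were 0.04 ± 0.13 for Krt1 (95% interval -0.25 to 0.33) and -0.07 ± 0.21 for Krt10 (-0.56 to 0.42). The second probe of Krt1 was dim, at -4.34 to -5.09, and the sign of the Krt1 difference turned to -0.07 when the probes were averaged. Krt80, a type II keratin of many epithelia, differed by 0.16 ± 0.14 and did not pass. Non-keratin markers of interfollicular keratinocytes were called in 0 of 12 genes, against 14.2% of all genes, with a median difference of 0.07.

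**Figure D2:**
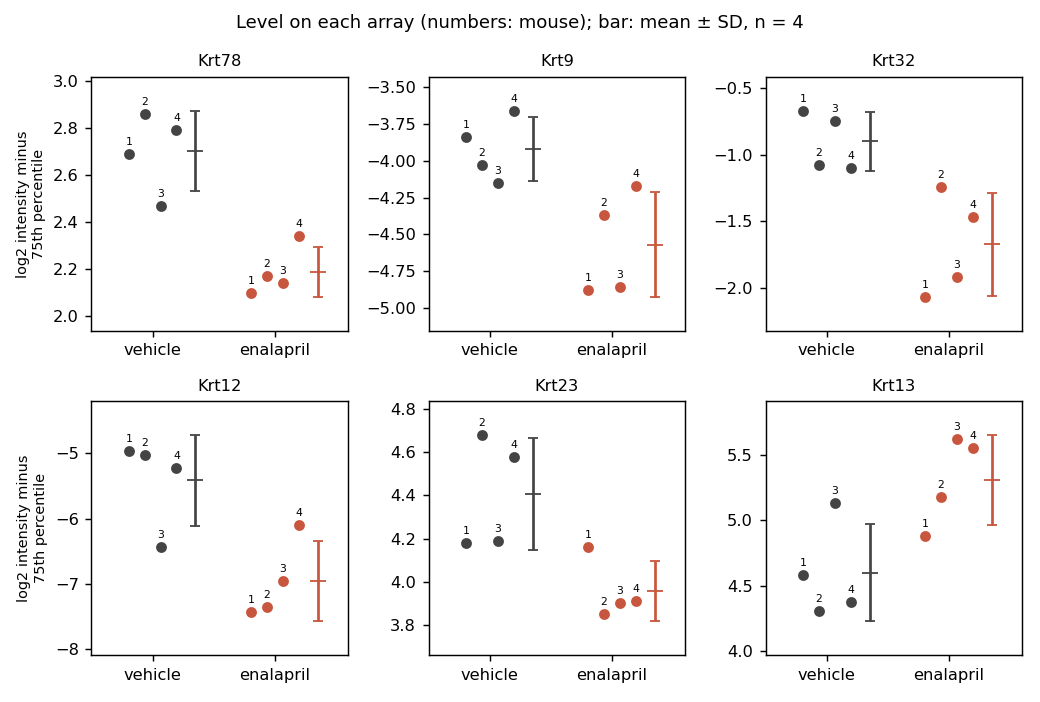
Level of 6 keratins in each mouse (log2 intensity minus the array's 75th percentile), with the mean ± SD of 4 mice beside the points. Krt78, Krt9, Krt32 and Krt23 do not overlap between groups, whereas Krt12 and Krt13 do.

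The stress-associated keratins had positive differences in 4 of 4 genes, against 7677 of 19097 over all genes. Of these keratins 0 of 4 passed, with or without adjustment, against 14.2% of all genes with it and 6125 of 19097 without. The median of these keratins was 0.44, or 0.53 above that of all genes. On the submitters' uncentred values Krt16 and Krt17 turned to -0.15 and -0.30. Krt6a had levels of 5.33, 4.69, 6.09 and 4.91 in the vehicle mice and 5.68, 5.79, 6.56 and 5.67 in the enalapril mice. Krt6b had levels of 3.68, 2.91, 4.49 and 2.62 in the vehicle mice and 4.05, 4.14, 5.33 and 3.96 in the enalapril mice. Vehicle mouse 3 and enalapril mouse 3 were high in both genes, and vehicle mice 2 and 4 were low. The groups overlapped through vehicle mouse 3. The differences were 0.67 ± 0.32 for Krt6a (adjusted p = 0.189, 95% interval -0.06 to 1.40) and 0.94 ± 0.45 for Krt6b (adjusted p = 0.185, interval -0.08 to 1.96). Krt6a and Krt6b are near-identical copies, and how far each probe also reads the other gene was not tested.

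Krt16 and Krt17 are the type I keratins of this group. Krt16 had levels of 7.25, 6.74, 7.22 and 6.92 in the vehicle mice and 7.08, 7.23, 7.57 and 7.12 in the enalapril mice. Krt17 had levels of 7.82, 7.38, 7.48 and 7.76 in the vehicle mice and 7.61, 7.53, 7.65 and 7.91 in the enalapril mice. Vehicle mouse 2, on a brighter array, was lowest in both, and the groups overlapped in both. The differences were 0.22 ± 0.16 for Krt16 (adjusted p = 0.372) and 0.07 ± 0.13 for Krt17 (adjusted p = 0.774). Krt6b ranged over 6.53-fold among the 8 mice, Krt6a over 3.66-fold, Krt16 over 1.77-fold and Krt17 over 1.44-fold. Krt6a and Krt6b lay on the same side of their means in 8 of 8 mice, Krt6a and Krt16 in 5 of 8, and Krt6b and Krt17 in 3 of 8.

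**Figure D3:**
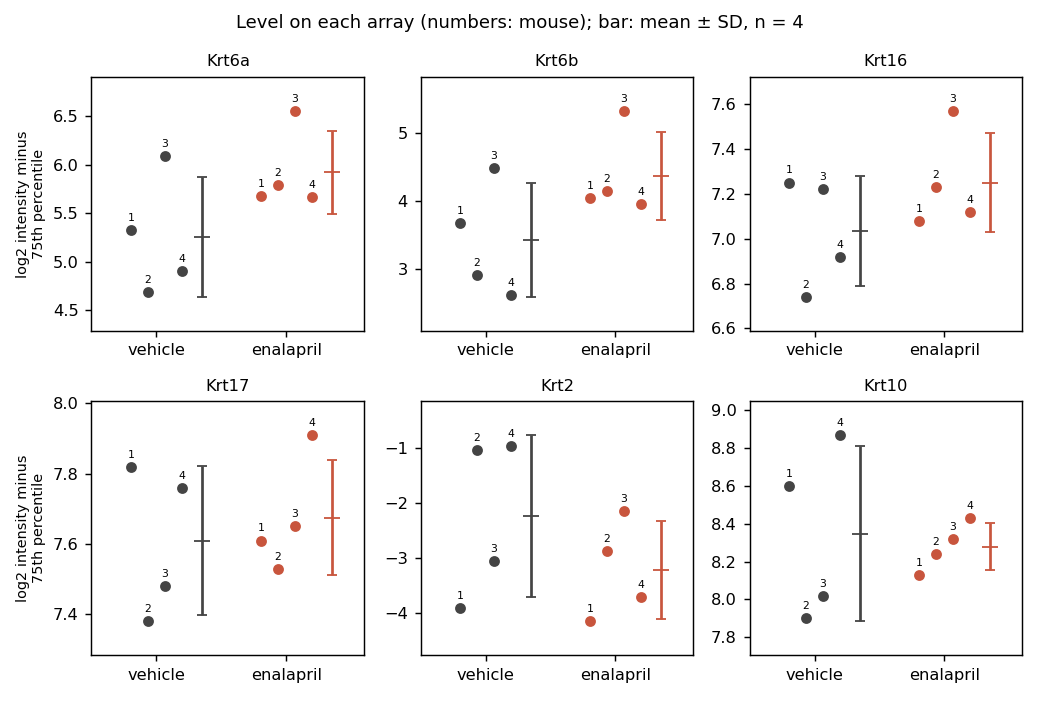
Level of the 4 stress-associated keratins, Krt2 and Krt10 in each mouse (log2 intensity minus the array's 75th percentile), with mean ± SD of 4 mice. Enalapril mouse 3 stands highest for Krt6a, Krt6b and Krt16, and vehicle mice 2 and 4 stand high for Krt2.

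The inner root sheath keratins had negative differences in 5 of 5 genes, against 59.8% of all genes. Of these keratins 0 of 5 passed, with or without adjustment, against 14.2% of all genes with it and 6125 of 19097 without. Inner root sheath keratins build the sheath that moulds the growing hair. Krt71 had levels of 5.58, 5.32, 5.34 and 4.60 in the vehicle mice and 4.57, 5.05, 4.58 and 5.33 in the enalapril mice. Krt25 had levels of 4.02, 3.72, 3.84 and 2.85 in the vehicle mice and 2.94, 3.34, 2.60 and 3.19 in the enalapril mice. Krt27 had levels of 4.19, 3.87, 4.08 and 3.07 in the vehicle mice and 3.20, 3.70, 3.08 and 3.68 in the enalapril mice. In these 3 genes vehicle mouse 1 was highest and vehicle mouse 4 was low, and the groups overlapped. Krt28 had levels of 3.06, 2.64, 2.47 and 1.78 in the vehicle mice and 1.84, 2.47, 1.43 and 2.27 in the enalapril mice. The differences were -0.33 ± 0.25 for Krt71, -0.59 ± 0.27 for Krt25, -0.39 ± 0.26 for Krt27 and -0.49 ± 0.30 for Krt28. Their adjusted p-values were 0.393, 0.163, 0.336 and 0.304. Krt26 differed by -0.09 ± 0.28, and its sign turned to 0.21 with normexp background correction. Krt25 passed only when vehicle mouse 4 was left out (adjusted p = 0.0451) or on the submitters' uncentred values. The 5 genes moved together across mice: their mean deviation was 0.65 in vehicle mouse 1, where all 5 were highest, and -0.52 in vehicle mouse 4.

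Of the hair shaft keratins, 1 of 11 passed as lower and 0 as higher, against 9.85% and 4.33% of all genes. Of their differences 9 of 11 were negative, against 59.8% of all genes. The median was -0.44, or 0.35 below that of all genes. Krt32, a type I keratin of the hair cuticle, fell 1.71-fold. Krt32 had levels of -0.67, -1.08, -0.75 and -1.10 in the vehicle mice and -2.07, -1.24, -1.92 and -1.47 in the enalapril mice. All enalapril mice lay below all vehicle mice, with enalapril mice 1 and 3 lowest. The mean was -0.90 ± 0.23 in the vehicle group and -1.68 ± 0.39 in the enalapril group (SD, n = 4), and limma gave -0.77 ± 0.20 with an adjusted p of 0.0378. The call held in 8 of 14 alternatives, and Krt32 too has a single probe, whose values several of these left unchanged. It was lost with both forms of normexp, E1A centring, the replicate block, a filter of at least 1 array or no filter. Normexp without the repair called 0 genes on the whole array. With a mouse left out, the Krt32 call held only without enalapril mouse 2 or 4, with adjusted p up to 0.0958 otherwise.

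Krt36 and Krt33b, type I keratins of the shaft, had large negative estimates that did not pass. Krt36 had levels of -2.04, -2.96, -1.68 and -2.57 in the vehicle mice and -3.85, -2.74, -3.85 and -3.19 in the enalapril mice. Krt33b had levels of 2.00, 1.15, 1.82 and 0.71 in the vehicle mice and 0.28, 1.07, 0.10 and 1.25 in the enalapril mice. Enalapril mice 1 and 3 were lowest in both genes, and the groups overlapped. The differences were -1.10 ± 0.34 for Krt36 (adjusted p = 0.0619) and -0.74 ± 0.35 for Krt33b (adjusted p = 0.183). The second Krt36 probe differed by -0.81 and was also lowest in enalapril mice 1 and 3. Krt85 had levels of 0.37, -0.32, 0.60 and -0.38 in the vehicle mice and -0.65, 0.77, 0.18 and 0.30 in the enalapril mice. The type II Krt85 overlapped fully between groups, with a difference of 0.08 ± 0.33 (95% interval -0.66 to 0.83).

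Of the other hair shaft keratins, Krt31, Krt33a, Krt34, Krt35, Krt82 and Krt87 had differences from -0.50 to -0.05 and Krt84 had 0.20, with adjusted p from 0.277 to 0.937. The 4 genes whose windows hold CTTTGAAG differed by -0.77 (Krt32), -0.74 (Krt33b), -0.47 (Krt34) and -0.12 (Krt31). The spread among mice was wide: within-group SDs were 0.316 to 0.604, above the all-gene median in 11 of 11. All 11 genes were above their own means in vehicle mice 1 and 3 and in enalapril mouse 2, and 0 of 11 were in enalapril mouse 1. The mean deviation of the 11 genes was 0.59, -0.01, 0.52 and -0.34 in vehicle mice 1 to 4 and -0.66, 0.38, -0.42 and -0.06 in enalapril mice 1 to 4. Both groups thus held mice with high and mice with low hair keratin levels.

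Non-keratin markers of the hair follicle had the same mice at both ends of their range. Over 10 markers tested, the mean deviation ran from -0.26 to 0.29 in vehicle mice and from -0.43 to 0.17 in enalapril mice, with vehicle mouse 1 highest and enalapril mouse 1 lowest. S100a3, a calcium-binding protein of the hair cuticle, fell by 1.04 on the log2 scale (adjusted p = 0.0303), and the other 9 did not pass. Thus 1 of 10 markers passed as lower, near the 9.85% of all genes. The list was split in direction, with 5 positive and 5 negative differences. Of its transcription factors, Hoxc13, Foxn1 and Lef1 differed by 0.55, 0.41 and 0.16. Msx2 differed by -0.47 (adjusted p = 0.0595), with all enalapril mice below all vehicle mice, as in 15.4% of all genes. Krtap8-1, Krtap3-1 and Padi3 differed by -0.66, -0.57 and -0.52, and Psors1c2 and Tchh by 0.06 and 0.03. Dsg4, the hair shaft desmoglein, was not well above background on any array, and Shh, a signal of the growing matrix, was so on 2 enalapril arrays. The part of the number of hair follicle cells in these differences was not tested.

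**Figure D4:**
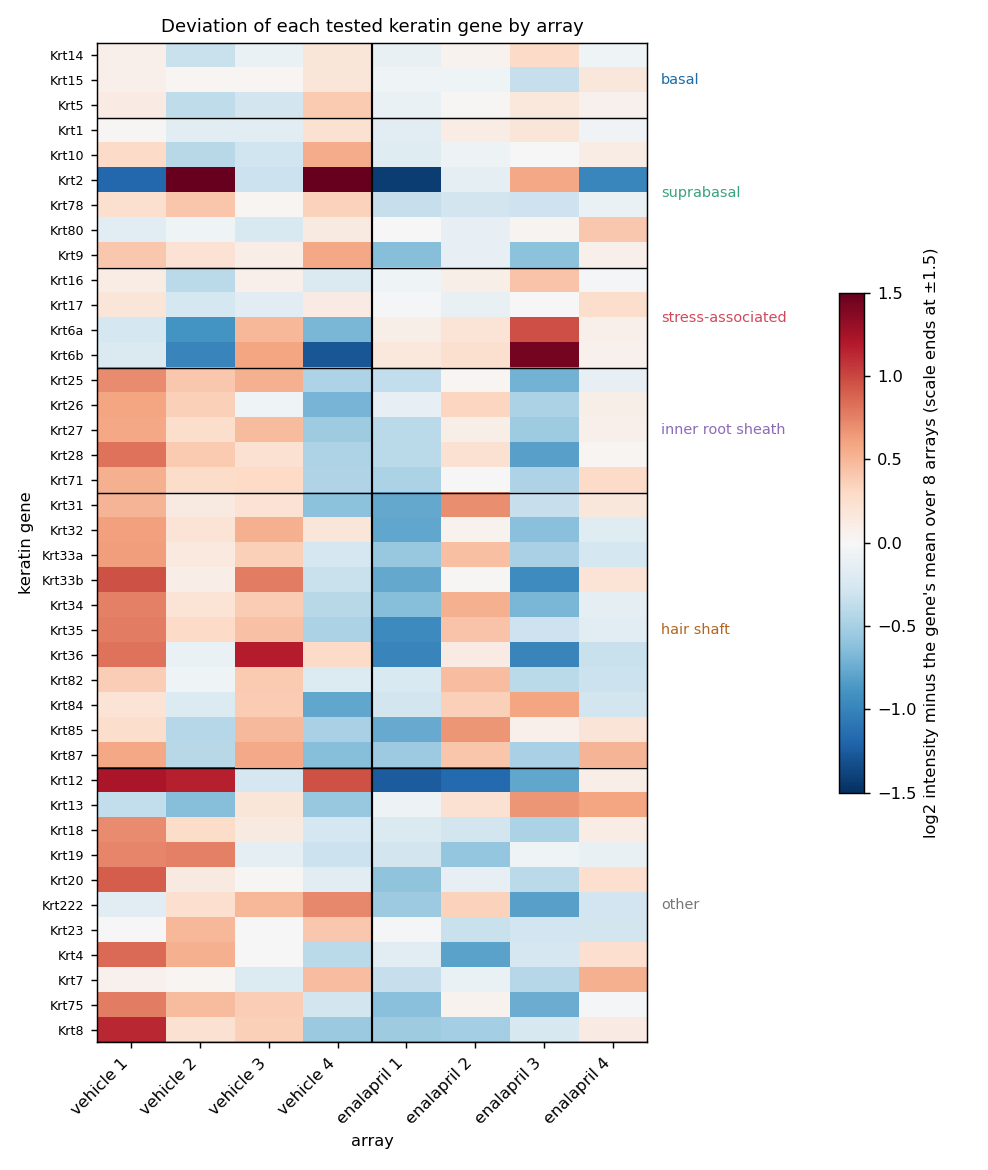
Deviation of each tested keratin from its own mean over 8 arrays (log2 intensity, colour scale ending at ±1.5), with arrays in columns and genes in rows by group. Inner root sheath and hair shaft keratins are high together in vehicle mouse 1 (mean deviations 0.65 and 0.59) and low together in vehicle mouse 4 and enalapril mice 1 and 3.

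Among the remaining keratins, 1 of 11 passed the test, as lower, against 9.85% of all genes. This was Krt12, best known from the cornea, whose values do not support a fall of a given size. Krt12 had levels of -4.96, -5.02, -6.44 and -5.23 in the vehicle mice and -7.43, -7.35, -6.96 and -6.09 in the enalapril mice. It was well above background in 3 vehicle mice and 1 enalapril mouse (mouse 4). In enalapril mice 1 to 3 it lay under the lowest level well above background on the same arrays (-6.35, -6.51 and -6.35). It thus met the filter mainly through the group where it was higher, and the groups overlapped through vehicle mouse 3 and enalapril mouse 4. The difference was -1.54 ± 0.39 with an adjusted p of 0.0365. With a mouse left out, Krt12 was tested in 4 of 8 fits and passed only without vehicle mouse 3, with adjusted p up to 0.0916 otherwise. The second Krt12 probe was never well above background. With normexp background correction the Krt12 difference turned to 0.63, and with repaired local background it was -0.01 and did not pass.

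Krt13, a type I keratin of mucosal epithelium, had the only positive difference in this set. Krt13 had levels of 4.58, 4.31, 5.13 and 4.38 in the vehicle mice and 4.88, 5.18, 5.62 and 5.55 in the enalapril mice. Vehicle mouse 3 overlapped the enalapril mice. The difference was 0.71 ± 0.22 with an adjusted p of 0.0683. With a mouse left out, Krt13 passed only without vehicle mouse 3 (adjusted p = 0.0355), with adjusted p up to 0.156 otherwise. The second Krt13 probe did not follow it: it read -4.16 in vehicle mouse 2 and -4.45 in enalapril mouse 3, against -1.64 to -0.66 in the other mice.

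Krt23, a type I keratin, did not overlap between groups but did not pass. Krt23 had levels of 4.18, 4.68, 4.19 and 4.58 in the vehicle mice and 4.16, 3.85, 3.90 and 3.91 in the enalapril mice. The difference was -0.45 ± 0.14 with an adjusted p of 0.0690. Krt75, the type II keratin of the companion layer of the follicle, differed by -0.67 ± 0.26 (adjusted p = 0.117). The simple epithelial pair Krt8 and Krt18 differed by -0.58 ± 0.32 and -0.43 ± 0.21 (adjusted p = 0.251 and 0.192). They lay on the same side of their means in 8 of 8 mice, with vehicle mouse 1 highest in both. Krt4, Krt7, Krt19, Krt20 and Krt222 had differences from -0.66 to -0.18 and did not pass.

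The genes whose products attach, bundle or crosslink keratin filaments did not pass in either direction (0 of 18 tested, and 1 without adjustment), with a median difference of -0.02. They include desmosomal Dsp and Pkp1, the filament-bundling filaggrins Flg and Flg2, and the transglutaminases Tgm1 and Tgm3. Regulators of epidermal keratin genes did not pass either (0 of 10, and 2 without adjustment). Beside both lists, 14.2% of all genes passed, and 6125 of 19097 were at p under 0.05 without adjustment. Of 10 regulators of hair keratin genes, 1 passed as higher and 0 as lower, against 4.33% and 9.85% of all genes. Foxq1, a forkhead factor needed for normal hair shaft structure, had levels of -0.13, -0.57, -0.54 and -0.33 in the vehicle mice and 0.10, 0.32, 0.63 and 0.94 in the enalapril mice. All enalapril mice lay above all vehicle mice, as in 6.60% of all genes, and the difference was 0.89 ± 0.19 (adjusted p = 0.0229). Msx2 had the only negative difference of these regulators, -0.47 ± 0.14, and did not pass (adjusted p = 0.0595). For Msx2 all enalapril mice lay below all vehicle mice, as in 15.4% of all genes.

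Markers of other tissues of the back also moved with the groups. Skeletal muscle markers passed as lower in 6 of 12 genes (median -0.66), against 9.85% of all genes. Their mean deviations were -0.12 to 0.68 in vehicle mice and -0.32 to -0.24 in enalapril mice. Adipocyte markers passed as lower in 4 of 10 (median -0.46), against the same 9.85%. Their mean deviations were 0.17 to 0.28 in vehicle mice and -0.44 to 0.08 in enalapril mice. Sebocyte and fibroblast markers passed in 0 of 8 genes each, against 14.2% of all genes. Leukocyte and proliferation markers had 1 higher gene of 8 each (Itgam and Top2a), against 4.33% of all genes. Of the leukocyte differences 4 were positive and 4 negative. Of the proliferation differences 6 of 8 were negative (median -0.18), among them Birc5 at -0.42, with all enalapril mice below all vehicle mice, and Ccnb1 at -0.38, neither of which passed. The part of tissue composition in the keratin differences was not tested.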

How the data were processed

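Dorsal skin RNA of 8 mice was labelled with Cy3 and hybridised to 8 one-colour Agilent arrays. The deposited scanner files hold spot intensity (background-subtracted processed signal) and spot flags from Agilent Feature Extraction 9.1.3.1, per the file headers. The submitters' value table holds log2 processed intensity with no centring between arrays, as a comparison with the deposited scanner files showed. Per the labels, RNA samples were chosen for the integrity of their ribosomal RNA, and each is a separate mouse.

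The levels used here are log2 processed intensity minus the 75th percentile of the array's non-control spots. Outlier spots were removed, spots of a probe were averaged, and probes were tested if 4 or more of the 8 arrays called them well above background. Probe names were updated through RefSeq accessions, then gene symbols, then synonyms. This renamed 5 keratin probes (Krt2-1 to Krt1, Krt2-17 to Krt2, Krt2-25 to Krt87). Where a gene has several probes, the brightest was used, and probes that disagree are named. Groups were compared with limma 3.58.1 in R 4.3.3, two-sided, with Benjamini-Hochberg adjustment over all genes tested. The scripts were tested on simulated data. The number of arrays limits the precision.

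The keratin groups and gene lists were chosen with earlier results of these data known. Values in every mouse are given for keratins that passed, for the 3 smallest p-values of each group and for Krt5, Krt14, Krt15, Krt1, Krt10, Krt6a, Krt16, Krt17, Krt71 and Krt85. Of other lists, at most 4 members that passed are named, and other names were chosen after their values were seen. The alternatives changed the background correction, centring, normalization, filter, probe choice, variance model, array weights, replicate block and threshold, and left out each mouse. The design text also mentions treatment for 6 weeks and 6 mice per group, which were not analysed here.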

Additional observations from a re-analysis of the deposited data

Results flagged for a closer look

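In the enalapril group, mouse 3 stood apart from the other 3 mice for Krt6b, at 5.33 against 4.14 for the next highest (log2 intensity minus the array's 75th percentile). The same mouse stood apart for Krt6a, at 6.56 against 5.79. In both genes its gap to the next mouse, divided by the range of the group, was above Dixon's 95% critical value for 4 samples. These were the 2 flags among 80 tests, and chance flags about 5% of such tests.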

How the results depend on the processing

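Of 874 values of single keratins under the alternatives, 812 kept their sign. The number of keratins called lower, 3 at the chosen settings, was 0 with normexp and 1 with normexp on repaired local background, 1 with centring on the E1A spike-in probes, 10 on the submitters' values, 1 with a filter of at least 1 array, 1 with no filter, 7 with array weights and 6 at an adjusted p under 0.10. The number called higher, 0 at the chosen settings, was 1 with quantile normalization, 1 with array weights and 1 at an adjusted p under 0.10. The calls over all genes moved with the setting as well. Of 19097 genes, 1881 were called lower at the chosen settings, 257 with E1A centring, 1892 on the submitters' values and 4001 with array weights. Lower calls were 1627 of 21507 genes with a filter of at least 1 array and 1053 of 27740 with no filter. Higher calls over all genes were 826 at the chosen settings, 794 with quantile normalization and 1936 with array weights. With a mouse left out, the numbers of keratins ran from 0 to 3 lower and from 0 to 1 higher. Relative to all genes, the basal median moved to -0.32 with normexp and to -0.019 with repaired normexp, the stress-associated median to 0.046 and that of the remaining keratins to 0.0087 with normexp. Over all genes, normexp called 0, and 582 higher and 1254 lower once the local background of 5 spots was repaired. With a mouse left out, calls ran from 844 without enalapril mouse 2 to 4942 without enalapril mouse 4, against 2707. Of called genes, 30.5% were higher, 41.7% with quantile normalization and 5.16% on the submitters' values.

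Signs turned in 62 values of 23 keratins, none of which were called. With normexp they were Krt14 -0.17, Krt5 -0.18, Krt82 0.62, Krt85 -0.024, Krt26 0.21, Krt12 0.63, Krt222 0.63, Krt18 0.027, Krt19 0.33, Krt8 0.0060, Krt20 0.15, Krt4 0.835, Krt7 0.052, Krt16 -0.056, Krt17 -0.14, Krt9 0.58 and Krt1 -0.23. With repaired normexp they were Krt5 -0.00225, Krt82 0.049, Krt222 0.0083, Krt4 0.20 and Krt1 -0.049. On the submitters' values they were Krt14 -0.28, Krt5 -0.29, Krt84 -0.17, Krt85 -0.28, Krt16 -0.15, Krt17 -0.30, Krt80 -0.20 and Krt1 -0.32. E1A centring gave Krt17 -0.0049 and Krt1 -0.029, array weights Krt82 0.0033, Krt31 0.076, Krt87 0.060 and Krt17 -0.017, probe averaging Krt1 -0.070, and quantile normalization Krt15 0.076 and Krt10 0.025. With a mouse left out, the ranges that crossed 0 were -0.014 to 0.12 for Krt1, -0.22 to 0.11 for Krt10, -0.0086 to 0.16 for Krt14, -0.012 to 0.13 for Krt17, -0.34 to 0.086 for Krt26, -0.38 to 0.11 for Krt31, -0.044 to 0.21 for Krt5, -0.028 to 0.36 for Krt84, -0.12 to 0.35 for Krt85 and -0.27 to 0.13 for Krt87. The cause of these changes was not tested.

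Same-numbered mice of the groups did not deviate together (correlations of -0.16, 0.05, 0.15 and -0.02), and enalapril mouse 1 correlated best with vehicle mouse 2 (0.22). With the replicate number as a block, 610 genes and 0 keratins passed. Slide and scan as a block could not be fitted, since each slide holds 1 group. Signal over background limits Krt12, which was well above background in 3 vehicle mice and 1 enalapril mouse.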

Other observations

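4 genes with a keratin name in current annotation lie outside the name rule. Krt79, a keratin of the follicle opening, differed by 0.07 ± 0.11, Krt86 by -0.13 ± 0.37 and Krt88 by -0.44 ± 0.16 (adjusted p = 0.114 over all probes, limma). Krt90 was well above background on 3 arrays and was not tested.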
